A study of Mus musculus with 12 samples.

Results

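Nuclei of layer 4/5 intratelencephalic (L4/5 IT) neurons of the mouse motor cortex were split by how much RNA of 13 activity-induced genes they held, and the active nuclei were compared with the silent ones of the same animal. Both groups were chosen by measured values. A nucleus counted as L4/5 IT when it had at least 500 detected genes, at least 2000 UMIs (unique molecular identifiers, each a captured RNA molecule), at least 2 UMIs of Slc17a7, the vesicular glutamate transporter, and at most 1 UMI of Gad1 and Gad2 together, which make GABA. It also needed at least 3 UMIs of Rspo1, Adam33 and Mamdc2 together and at most 1 UMI of Otof, Stard8, Deptor and Rxfp2, which mark IT neurons of other layers. Of 51926 barcodes, 552 nuclei met this rule. Each was thinned at random to 2000 UMIs, and the UMIs of Fos, Fosb, Junb, Arc, Egr1, Egr3, Egr4, Npas4, Nr4a1, Nr4a3, Ier2, Dusp1 and Btg2 that remained were summed. The sum is called the activity score here. A score of 3 or more made a nucleus high (163 nuclei), a score of 0 made it silent (159 nuclei), and 230 nuclei lay between.

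The tissue, cut from 6 mice aged 13 weeks, was the right caudal forelimb area, a part of primary motor cortex, with strain and sex not given in the sources used here. All 6 mice were on restricted water, 1 mL a day. Control mice 1, 3 and 5 drank it in the home cage without motor training, while trained mice 2, 4 and 6 earned part of it by pressing a lever while head-fixed on days 11 to 13, in sessions of 100 trials. Nuclei were isolated from flash-frozen tissue and measured by droplet-based 3′ RNA sequencing. The 2 runs of each mouse were joined in the deposited counts, so each mouse is 1 replicate.

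When a cortical neuron fires strongly, calcium entry activates kinases that switch on immediate early genes within minutes, without new protein synthesis. Many of these genes encode transcription factors (Fos, Junb, the Egr and Nr4a families, Npas4), which then drive a slower wave of genes for secreted factors, receptors and synaptic proteins, among them Bdnf. CREB, bound to the palindrome TGACGTCA, is a major early link between calcium and transcription. L4/5 IT neurons of motor cortex receive thalamic input and send axons within the cortex, and Rorb is their best known marker.

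The gated nuclei carried that marker. Over all 552 nuclei Rorb stood at 952 CPM (UMI counts per 1e6 UMIs of the sum, with no other scaling), against 259 CPM over all 18233 glutamatergic nuclei of the same first gates, 72.7 CPM in L2/3 IT nuclei and 53.3 CPM in L6 corticothalamic (CT) nuclei gated in the same way. Cux2, Unc5d and Zmat4 also lay above the glutamatergic level, but Cux2 was as high in L2/3 IT nuclei, at 277 CPM in both classes. Scnn1a, a marker of layer 4 in sensory cortex, and Endou, also on the list of L4/5 IT markers, stood at 2.04 and 0.73 CPM. No L4/5 IT barcode sequence occurred in more than 1 mouse, against 311 shared sequences among all barcodes.

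Activity was spread over every mouse. High nuclei made up 19.6%, 31.5% and 39.8% of the L4/5 IT nuclei of control mice 1, 3 and 5, and 20.9%, 38.8% and 19.0% of those of trained mice 2, 4 and 6. The mean share was 30.3% ± 10.2 (SD, n = 3) for control and 26.2% ± 10.9 (SD, n = 3) for trained mice, and the two-sided exact permutation test over mice gave p = 0.7, with 0.1 the least that 3 against 3 can give. The groups overlapped fully. The shares were lower in the mice whose nuclei held more UMIs: median UMIs over all nuclei with at least 500 genes were 7141, 7036.5 and 7598 in mice 1, 2 and 6, and 5487, 5903 and 5605 in mice 3, 4 and 5. The part of depth in this was not tested, and scores were taken at equal depth. Among L2/3 IT nuclei 9.9% were high and among L6 CT nuclei 22%, gated by their own markers and scored alike. Of 1868 oligodendrocyte nuclei 3.0% reached a score of 3 (95% exact interval 2.27% to 3.88%, median 2638.5 UMIs). Of L4/5 IT nuclei 29.5% did (25.8% to 33.5%, median 11498.5 UMIs). Both intervals cover counting error only. Whether the score of oligodendrocyte nuclei came from RNA of other cells or from their own was not tested.

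**Figure D1:**
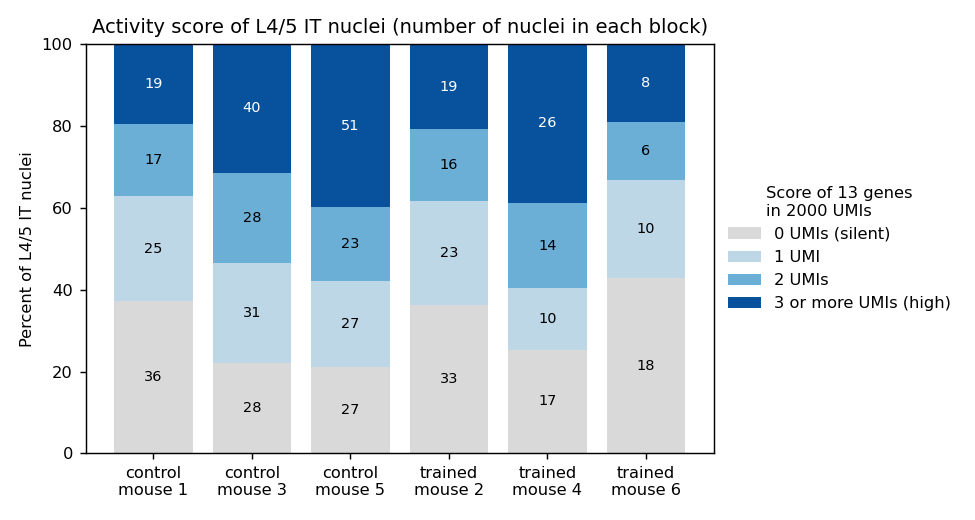
Share of L4/5 IT nuclei (percent, y axis) by activity score in each of the 6 mice, with the number of nuclei in each block. High nuclei, dark blue at the top, reach from 19.0% in trained mouse 6 to 39.8% in control mouse 5, and both groups hold high and low mice.

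The high state was rarely the work of 1 gene. Among the 163 high nuclei, 123 had thinned UMIs of at least 3 of the 13 genes, 37 of 2 genes and 3 of 1 gene. Their median score was 4 and the highest 14. Just inside the threshold lay 65 nuclei with a score of 3, and just outside it 104 nuclei with a score of 2. Egr1, a zinc finger transcription factor, gave 19.0% of all score UMIs and was present in 57.7% of high nuclei. Nr4a1, an orphan nuclear receptor, gave 17.3% and was present in 54.6%. Arc, a synaptic protein that promotes the removal of AMPA receptors, and Junb, a partner of Fos in AP-1, were present in 46.6% and 37.4%. Fos itself was found in 19.0% and Npas4, a neuronal factor induced by calcium entry, in 16%. Ier2 was rarest, in 7.98%.

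The 13 genes moved together even where the gene in question was left out of the choice. For each gene the nuclei were scored anew by the other 12. Junb then stood at 26.8, 49.9 and 40.4 CPM in the silent and 258, 146 and 225 CPM in the high nuclei of control mice 1, 3 and 5. In trained mice 2, 4 and 6 it stood at 38.5, 59.1 and 53.5 CPM in silent and 155, 266 and 84.9 CPM in high nuclei, so the states did not overlap. Arc had a median of 57.8 CPM in silent nuclei and 175 CPM in high ones, and Egr1 95 and 250 CPM. Fosb, the scarcest here, was at 0 in the silent nuclei of 5 of 6 mice and between 4.71 and 28.1 CPM in high ones. The mean difference between states ranged from 0.85 for Ier2 to 1.92 for Btg2, an antiproliferative factor, on the log2(CPM + 10) scale. Each of the 13 genes was higher in high nuclei in 6 of 6 mice, with an exact two-sided sign permutation p of 0.03125, the smallest that 6 mice allow. With a second random draw for thinning, 11 of the 13 were higher in all 6 mice, and with a class gate of 5 UMIs, which left 117 nuclei, 4 were.

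**Figure D2:**
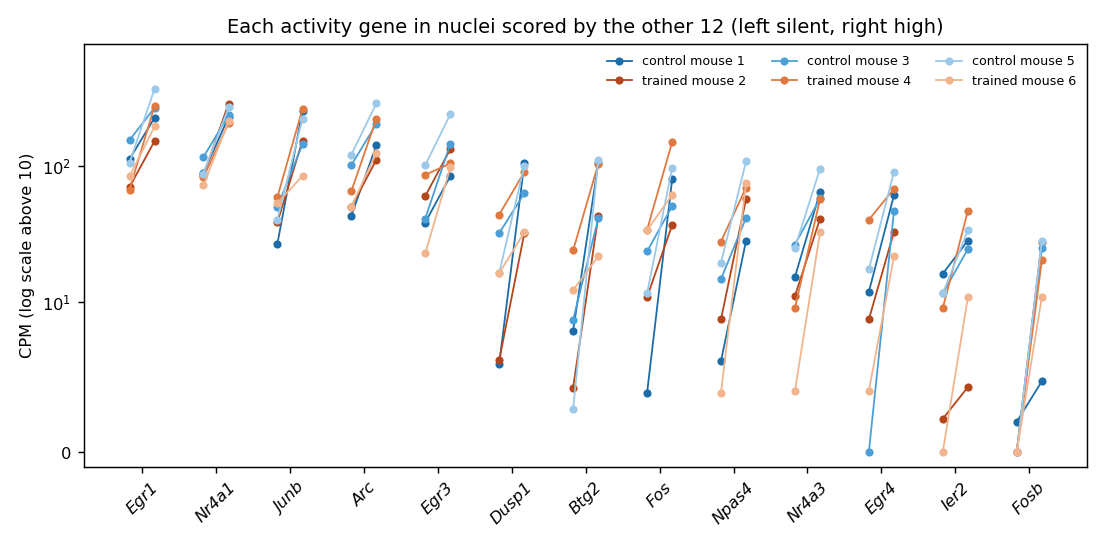
Level of each of the 13 activity genes in CPM (y axis, logarithmic above 10) in L4/5 IT nuclei called silent (left point) or high (right point) from the other 12 genes, 1 line per mouse. All 13 genes rise in all 6 mice, from a median of 95 to 250 CPM for Egr1.

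Beyond the genes of the score, high nuclei held more RNA of Homer1, Tiparp, Plcxd2, Pcsk1 and Bdnf among others, and less of Dgkb, Gria3 and Rbfox1 among others. UMIs were summed per mouse and state (92379 to 652231 UMIs a sum) and compared by edgeR's quasi-likelihood test with the mouse as a block. Of 4593 genes tested, 64 were higher in high nuclei (1.39%) and 48 lower (1.05%) at a Benjamini-Hochberg adjusted p under 0.05. The higher genes differed by 1.28-fold to 4.25-fold and the lower ones by 1.2-fold to 5.89-fold, and 55 of the 64 and 31 of the 48 had the same sign in all 6 mice. The largest folds were those of Zdbf2, at 4.78 to 20.5 CPM in silent nuclei, and Npas3, at 0 to 32.5 CPM in high nuclei. The filter on low counts could be passed with the counts of a single state. CPM are given unscaled and fold changes come from the fit, with standard errors. Genes named for their small p were also chosen for the same sign in all 6 mice. For them such agreement is a condition of being named and supports nothing. The number of calls depended on the nuclei and the tool. DESeq2 called 23 higher and 12 lower genes. Without nuclei above 10000 UMIs 2 and 1 genes were called, and all 28 higher genes tested and 22 of 26 lower genes tested kept their sign. With a class gate of 5 UMIs 5 and 1 were called, and all 30 higher and 23 of 27 lower genes tested kept their sign. With a second random draw for thinning, 62 of the 64 higher and 42 of the 48 lower genes were tested, all kept their sign, and 30 and 14 of them passed. These settings reuse nuclei in which the genes were called, so a kept sign is a description and supports nothing. Without trained mouse 2, 23 genes were higher and 18 lower, and without control mouse 3, 27 and 19. Leaving out trained mouse 4 gave 45 and 29, and leaving out trained mouse 6 gave 41 and 31.

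Homer1 had the smallest p among the higher genes, though Zdbf2 and Tiparp changed by a larger fold. Its short form, Homer1a, is an immediate early product that uncouples metabotropic glutamate receptors from the postsynaptic scaffold, although a gene count does not separate the forms. The gene lies at chr13:93299635-93405129 on the plus strand (mm10). Silent nuclei held 591, 807 and 685 CPM in control mice 1, 3 and 5 and 686, 660 and 402 CPM in trained mice 2, 4 and 6. High nuclei of mice 1, 3 and 5 held 1220.1, 1388.4 and 1896.6 CPM, and those of mice 2, 4 and 6 held 1829.5, 1092.0 and 1071.7 CPM. Every high value lay above every silent one. The log2 fold change was 1.11 ± 0.10, with an edgeR adjusted p of 3.43e-09.

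Rheb, the small GTPase that activates mTORC1 and is itself an early gene in neurons, was the other called member of the list of further immediate early genes. Its silent nuclei ranged from 28.4 to 72.0 CPM (median 55.1) and its high nuclei from 94.2 to 161 CPM (median 119), without overlap, a log2 change of 1.11 ± 0.19 (edgeR adjusted p = 0.000332). Of the 37 genes on that list, 11 passed the filter on low counts, 2 were higher and none lower, beside 1.39% higher among all genes tested. The median log2 change of the 11 was 0.47, beside -0.01 over all genes tested. Coq10b (0.77 ± 0.26), Fbxo33 (0.69 ± 0.24) and Per1 (0.62 ± 0.21), a clock gene that CREB induces, had edgeR adjusted p-values of 0.122, 0.141 and 0.14 and were not called. Several classical members were too scarce to test. Nr4a2 had a median of 6.35 CPM in silent and 37.0 CPM in high nuclei, higher in 5 of 6 mice. Fosl2 and Trib1 were higher in 6 of 6 mice, at medians of 7.28 and 23.7 CPM and of 7.08 and 19.7 CPM. Other scarce members did not rise in most mice. Jun (10.2 and 11.5 CPM) was higher in 3 mice and lower in 3. Errfi1 (20.2 and 11.1 CPM), Rgs2 (12.1 and 12.9 CPM) and Klf2 (3.04 and 0 CPM) were each lower in 4 of 6.

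The delayed wave gave the most called members of any list. Of 51 genes, 22 were tested, 8 were higher and none lower, with a median log2 change of 0.38 over the 22, beside 1.39% higher among all genes tested. DESeq2 called 5 of this list. Tiparp, a mono-ADP-ribosyltransferase induced by the aryl hydrocarbon receptor and by activity, had a median of 28.9 CPM in silent and 115 CPM in high nuclei. It rose in all 6 mice, least in trained mouse 6 (28.4 to 43.3 CPM) and most in control mouse 5 (5.76 to 88.9 CPM), with a log2 change of 2.05 ± 0.25 (edgeR adjusted p = 1.86e-06). Pcsk1, a convertase that cuts neuropeptide and neurotrophin precursors, ranged over the mice from 32.5 CPM (trained mouse 6) to 73.3 CPM (control mouse 3) in silent nuclei, with a median of 47.2 CPM. In high nuclei it ranged from 105 CPM (control mouse 3) to 178 CPM (control mouse 5), with a median of 138 CPM. The 2 states did not overlap, and the log2 change was 1.43 ± 0.20 (edgeR adjusted p = 1.75e-05).

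Bdnf, the secreted neurotrophin that strengthens synapses, was higher too. In silent nuclei it ranged from 17.6 to 107 CPM (median 45.1) and in high nuclei from 97.4 to 209 CPM (median 143), so the lowest high mouse overlapped the highest silent one, control mouse 5. The log2 change was 1.50 ± 0.23 (edgeR adjusted p = 7.39e-05). Ntrk2, which encodes the BDNF receptor TrkB, was much more abundant, with medians of 785 and 1200.1 CPM and a smaller log2 change of 0.53 ± 0.09 (edgeR adjusted p = 0.000299). Among 13 neurotrophin genes 7 were tested and these 2 were called, beside 1.39% higher among all genes tested. Ntrk3, the receptor of neurotrophin-3, had a log2 change of -0.29 ± 0.12 (edgeR adjusted p = 0.26).

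The other called members of the delayed list rose less. Brinp1, a brain protein linked to cell-cycle exit, had medians of 1051.2 CPM in silent and 1449.1 CPM in high nuclei, without overlap. Nrn1, a GPI-anchored protein that promotes neurite growth, had medians of 145 and 225 CPM, Frmd6 271 and 372 CPM, Rgs4, which speeds G-protein shut-off, 57.0 and 107 CPM, and the chaperone cofactor Dnajb5 34.0 and 71.5 CPM. Rgs4 and Dnajb5 were each lower in high nuclei of 1 of 6 mice. Familiar delayed genes were not called: Vgf had a log2 change of 0.45 ± 0.20 (edgeR adjusted p = 0.316), Scg2 of 0.33 ± 0.22 (0.569) and Crem of 0.75 ± 0.32 (0.265). Of the 22 tested members 17 had a change above 0. Nefl had one of -0.33 ± 0.28 (edgeR adjusted p = 0.672). Among members too scarce to test, Inhba (20.2 and 8.81 CPM) and Nefm (34.9 and 18.4 CPM) were lower in 5 of 6 mice.

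**Figure D3:**
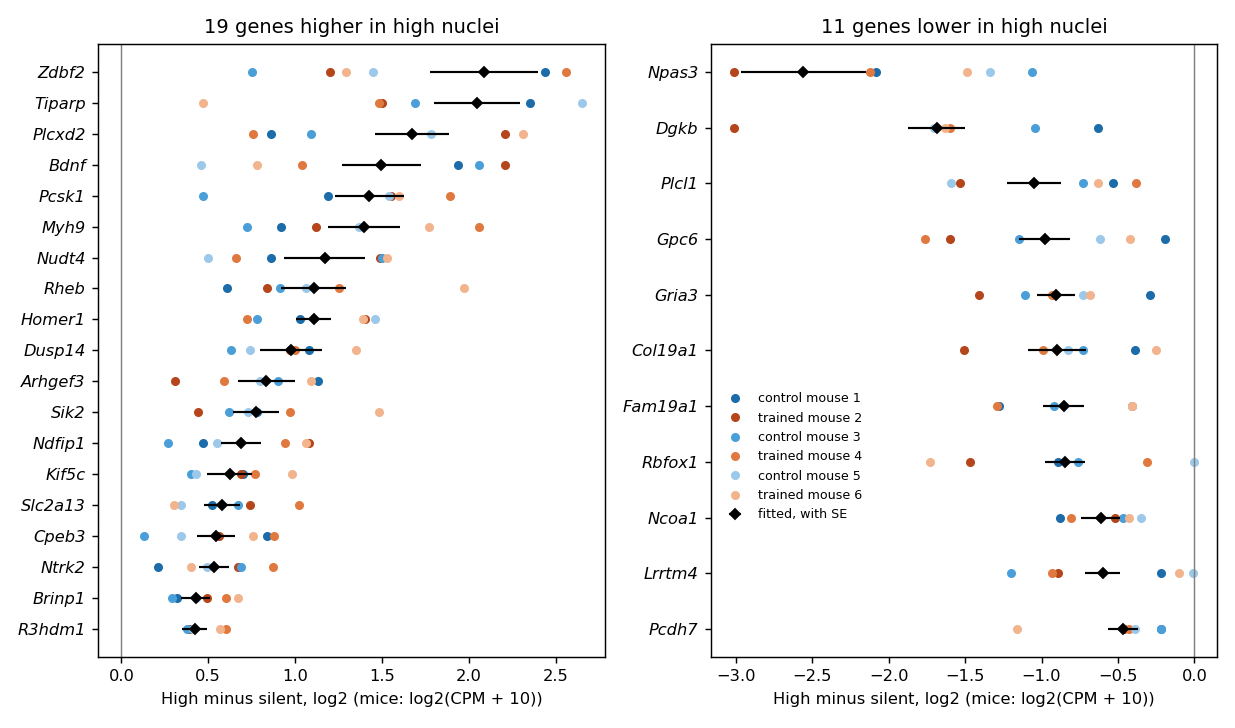
High minus silent difference on the log2 scale (x axis) for the 19 higher and 11 lower named genes, with 1 coloured point per mouse, on log2(CPM + 10), and the fitted log2 fold change with its standard error as a black diamond. Homer1 points lie close together around 1.11, and those of Tiparp and Npas3 are spread widely.

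Single signalling genes were also called. Dusp14, a phosphatase that dampens MAP kinases, had medians of 64.8 CPM in silent and 125 CPM in high nuclei (log2 change 0.98 ± 0.18, edgeR adjusted p = 0.000776). It was the 1 called gene among 14 tested of 27 MAP kinase feedback genes, beside 1.39% higher among all genes tested. Dusp16 (0.87 ± 0.30) had an edgeR adjusted p of 0.135. Sik2, a salt-inducible kinase that restrains CREB coactivators, had medians of 147 and 279 CPM (0.77 ± 0.13, edgeR adjusted p = 0.000416). Camk2d, a subunit of CaM kinase II, went the other way, with medians of 47.9 and 20 CPM (-1.24 ± 0.31, edgeR adjusted p = 0.0236), lower in 5 of 6 mice. Sik2 and Camk2d were the called genes among 30 tested of 35 in the CREB and kinase list, of which DESeq2 called 1. Among all genes tested 1.39% were higher and 1.05% lower. Creb1 itself had a log2 change of 0.14 ± 0.21. Hspa8, a constitutive chaperone, was higher at medians of 153 and 244 CPM (0.66 ± 0.14, edgeR adjusted p = 0.0059), and with Dnajb5 it made 2 called of 13 tested heat shock genes, beside 1.39% of all genes. DESeq2 called 1 of this list, and Dnajb5 kept its call in 8 of 18 alternative settings.

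Other higher genes of smallest p had varied roles. Plcxd2, a phospholipase C-like protein, had medians of 38.3 CPM in silent and 132 CPM in high nuclei without overlap (log2 change 1.67 ± 0.21, edgeR adjusted p = 5.15e-06). Myh9, the heavy chain of non-muscle myosin IIA, had medians of 35.4 and 117 CPM (1.40 ± 0.21, edgeR adjusted p = 7.02e-05), and Zdbf2, an imprinted gene, 15.3 and 55.4 CPM (2.09 ± 0.31). Ndfip1, an adaptor of NEDD4 ubiquitin ligases, Arhgef3, a RhoA exchange factor, and Nudt4, a diphosphoinositol phosphatase, had log2 changes of 0.69 ± 0.12, 0.84 ± 0.17 and 1.17 ± 0.23. Cpeb3, which controls translation of synaptic mRNAs, and Kif5c, a kinesin motor, had changes of 0.55 ± 0.11 and 0.62 ± 0.13. R3hdm1 and Slc2a13, a myo-inositol transporter, followed with 0.42 ± 0.07 and 0.58 ± 0.10. Hspa8 has near-identical copies elsewhere in the genome, and how reads shared with such copies were counted is not given in the sources used here.

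Promoter sequences show which of the higher genes carry the CREB palindrome near their start. They are RefSeq promoters on GRCm38.p6. A search of the 250 bases before each start found TGACGTCA (its own reverse complement) at 7 of the 52 higher genes with an entry (13.5%), 1 of 34 lower genes (2.94%), and 134 of 3531 tested genes (3.79%), and in 1.55% of all 32851 promoters. The 7 sites are shown with 10 bases on each side, 5′ to 3′ on the gene's strand, the motif in capitals.
Pcsk1: caggtagatcTGACGTCAagagatggct
Zdbf2: gcaccttcgcTGACGTCAgagctgcagt
Kif5c: atctctgcagTGACGTCAccgtgccgag
Slc25a25: ctgcaagcagTGACGTCAgtcctgatct
Ywhah: ttatagtaggTGACGTCAccttaaaaag
Chgb: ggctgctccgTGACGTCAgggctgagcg
Purb: cggggcggagTGACGTCAcgggaggcgc
The Pcsk1 stretch is chr13:75089769-75089796 and its motif begins 78 bases before the start. The Kif5c motif begins 26 bases before the start, at chr2:49619250-49619277. Slc25a25, a mitochondrial carrier, Ywhah, a 14-3-3 protein, Chgb, a granin of secretory vesicles, and Purb, a single-strand nucleic acid binding protein, had log2 changes of 0.94, 0.65, 0.51 and 0.88.

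Homer1 and Bdnf held the 5-base core of that site, TGACG or its reverse complement. It occurred, full sites included, in 53.8% of the higher genes with an entry, 17.6% of the lower genes, 33.8% of the tested genes and 17.8% of all promoters. The Homer1 stretch ends at the base before the start (chr13:93303671-93303756, plus strand) and the Bdnf stretch likewise (chr2:109692371-109692435, plus strand), each inside the span of its gene and outside annotated exons.
Homer1: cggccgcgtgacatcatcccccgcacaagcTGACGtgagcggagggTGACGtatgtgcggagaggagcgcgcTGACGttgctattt
Bdnf: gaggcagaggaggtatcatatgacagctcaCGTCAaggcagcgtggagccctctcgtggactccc
The cores are in capitals. Homer1 shows 3 of them in 86 bases and Bdnf 1 in 65 bases. Other sites were searched on both strands. The AP-1 site TGANTCA occurred at 7.69% of higher, 8.82% of lower and 4.7% of tested genes and in 6.75% of all promoters. The Egr site GCGNGGGCG occurred at 21.2%, 14.7%, 13.5% and 4.7% of the same sets, and the Nr4a site AAAGGTCA at 1.92%, 0%, 1.08% and 1.34%. These are matches of letters, and no binding was measured.

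Dgkb, a diacylglycerol kinase, had the smallest p among the lower genes. It lies at chr12:37817726-38634239. Its silent nuclei held 196, 199 and 207 CPM in control mice 1, 3 and 5 and 368, 397 and 422 CPM in trained mice 2, 4 and 6, and its high nuclei 122, 91.6 and 56.7 CPM and 36.9, 124 and 130 CPM. All silent values lay above all high ones, and the 3 trained mice were the highest among silent nuclei. The log2 change was -1.68 ± 0.19 (edgeR adjusted p = 3.34e-07). The trained-minus-control difference of Dgkb within silent nuclei, 0.99 ± 0.17 on the log2 scale, did not pass (edgeR adjusted p = 0.0586).

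Of 22 tested glutamate receptor genes 5 were lower and none higher, beside 1.05% lower among all genes tested, and DESeq2 called 2. Of the 5, Grm8, Grid1 and Grm5 are named here after their values were seen. Gria3, an AMPA receptor subunit, fell from a median of 559 to 271 CPM (-0.91 ± 0.12, edgeR adjusted p = 1.75e-05), in 6 of 6 mice and with overlap between states. Grm8 (-0.60 ± 0.13), Grid1 (-0.47 ± 0.13) and Grm5 (-0.32 ± 0.08) had edgeR adjusted p-values of 0.00914, 0.0481 and 0.0331. Grm8 kept its call in 11 of 21 alternative settings, Grid1 in 3 of 20 and Grm5 in 8 of 21, and the sign of Grm8 and of Grid1 turned in 1 setting each. The NMDA receptor genes Grin1 (0.04 ± 0.11), Grin2a (-0.04 ± 0.08) and Grin2b (-0.03 ± 0.08) and the AMPA genes Gria1 (-0.23 ± 0.11) and Gria2 (-0.13 ± 0.08) were not called. Over the 22 genes the median log2 change was -0.06.

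Of 19 tested postsynaptic scaffold genes 1 was higher, Homer1, and 2 were lower, Lrrtm4 and Lrrtm3, while DESeq2 called 1. Among all genes tested 1.39% were higher and 1.05% lower. Lrrtm4, a postsynaptic adhesion protein, had medians of 1812.3 CPM in silent and 1256.7 CPM in high nuclei (-0.60 ± 0.11, edgeR adjusted p = 0.00146), and its relative Lrrtm3 331 and 211 CPM (-0.51 ± 0.14, edgeR adjusted p = 0.043). Lrrtm3 kept its call in 7 of 21 alternative settings. In control mouse 5 Lrrtm4 hardly differed, at 1290.1 and 1278.7 CPM. Rbfox1, a splicing regulator, had medians of 1818.7 and 1057.5 CPM (-0.85 ± 0.13, edgeR adjusted p = 7.93e-05) and likewise hardly differed in that mouse (1581.0 and 1576.1 CPM). Pcdh7, a protocadherin, Ncoa1, a nuclear receptor coactivator, Col19a1, a collagen, Plcl1, a phospholipase C-like protein, and Fam19a1, a secreted chemokine-like protein, had log2 changes of -0.47 ± 0.10, -0.61 ± 0.13, -0.90 ± 0.19, -1.05 ± 0.18 and -0.86 ± 0.13. No GABA receptor gene (16 tested), potassium channel gene (31) or sodium or calcium channel gene (22) was called by edgeR or by DESeq2 in either direction, and 2, 5 and 5 of them had an unadjusted edgeR p under 0.05. Of 8 tested glucocorticoid response genes 0 were called by either tool, with 4 at an unadjusted p under 0.05. Of 22 tested histone modifier genes 1 was lower, Hdac9, a class IIa deacetylase named after its values were seen, with medians of 306 CPM in silent and 238 CPM in high nuclei (-0.46 ± 0.12, edgeR adjusted p = 0.0258). Lower genes made up 1.05% of all genes tested. DESeq2 called 0 of the histone modifier list, and Hdac9 kept its call in 9 of 21 alternative settings.

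Summed markers of other cells were compared between the states, and none passed after adjustment over the 19 measures compared. With 6 mice the exact p cannot fall below 0.03125, so a lone measure could not pass this adjustment. The lack of a pass therefore does not show that the states were alike. Npas3, a transcription factor with its highest levels in interneurons and glia, was the lower gene of largest change (log2 change -2.56 ± 0.41, edgeR adjusted p = 0.000152), with medians of 46.1 CPM in silent and 1.53 CPM in high nuclei. It rested on 125 UMIs in all and was at 0 CPM in the high nuclei of mice 1, 2 and 4. Only 7 alternative settings could test it. Gpc6, a glypican, had medians of 343 and 125 CPM (-0.98 ± 0.17). Summed over 7 markers of L5/6 near-projecting (NP) neurons, silent nuclei held 13.2 to 393 CPM (median 105) and high nuclei 6.72 to 64.9 CPM (median 17.4), lower in 5 of 6 mice (exact sign permutation p = 0.09375, adjusted 0.223). The defining NP marker Tshz2 stood at 71.2 CPM in the summed silent and 1.55 CPM in the summed high nuclei. Few nuclei carried it: at least 2 Tshz2 UMIs were found in 2 silent nuclei of mouse 1, in 1 each of mice 2, 4 and 6, in 0 of mice 3 and 5, and in 0 high nuclei. Other NP markers were also lower in the summed high nuclei: Nxph1 (38.2 and 5.17 CPM), Vwc2l (28.7 and 11.4 CPM) and Lypd1 (10.0 and 1.03 CPM). Trhr and Rapgef3 each stood at 3.34 and 0.517 CPM. Of the 7 markers only Slc17a8 was not lower, at 0 and 0.517 CPM. L2/3 IT markers (8 genes) had medians of 662 CPM in silent and 554 CPM in high nuclei. They were lower in 5 of 6 mice (exact p = 0.09375, adjusted 0.223). L6 CT markers (8 genes) had 494 and 390 CPM, lower in 4 of 6, and L5 IT markers (4 genes) 24.7 and 24.9 CPM. L4/5 IT markers (8 genes) had 2763.7 and 3095.4 CPM, higher in 5 of 6 mice (exact p = 0.0625, adjusted 0.223). L6 IT markers (6 genes) had medians of 16 and 6.80 CPM, lower in 6 of 6 mice (exact p = 0.03125, adjusted 0.198), and L5 extratelencephalic markers (8 genes) 43.7 and 18.2 CPM, lower in 5 of 6 (exact p = 0.09375, adjusted 0.223). Interneuron markers (10 genes) ranged from 56.8 to 274 CPM in silent and from 90.2 to 292 CPM in high nuclei, and oligodendrocyte markers (8 genes) from 72.6 to 519 CPM and from 84.8 to 498 CPM, with adjusted exact p-values of 0.792 and 0.825. The marker Rorb was itself higher in high nuclei, at medians of 726 and 913 CPM (0.41 ± 0.10, edgeR adjusted p = 0.0213). It kept its call in 9 of 21 alternative settings, with a log2 change of 0.06 at the lowest.

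Depth and RNA quality were compared in the same way. High nuclei held fewer UMIs in 6 of 6 mice, with per-mouse medians of 10049.5 to 12606 against 11110 to 13384, and a larger mitochondrial share in 6 of 6, at 0.0117% to 0.119% against 0.00718% to 0.0276%. For each the exact sign permutation p was 0.03125, the least that 6 mice can give, and 0.198 after adjustment over the 19 measures compared. The mitochondrial transcript mt-Co3 was among the higher genes, with medians of 37.0 and 59.3 CPM. Scrublet marked 7 of the 163 high and 13 of the 159 silent nuclei as doublets. Lower genes were long, with a median span of 396 kb against 26.8 kb for higher and 62.4 kb for all tested genes. The part of depth, RNA quality or gene length in the calls was not tested.

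The counts were repeated with nuclei that carried such markers left out, a choice made after seeing the data. With nuclei of 2 or more UMIs of NP or of oligodendrocyte markers left out (93 silent and 109 high remained), 31 genes were higher and 12 lower. Of the genes first called, 51 of the 64 higher ones were tested and kept their sign, 24 of them passing, and 40 of the 48 lower ones were tested and kept their sign, 10 passing. With only nuclei of at least 5 Rorb UMIs (103 silent and 131 high), 19 genes were higher and 4 lower, and 58 of 58 tested higher and 41 of 42 tested lower genes kept their sign. With doublets left out, 52 were higher and 36 lower. The nuclei left in each setting are part of those in which the genes were first called. A kept sign is thus a description and supports nothing.

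**Figure D4:**
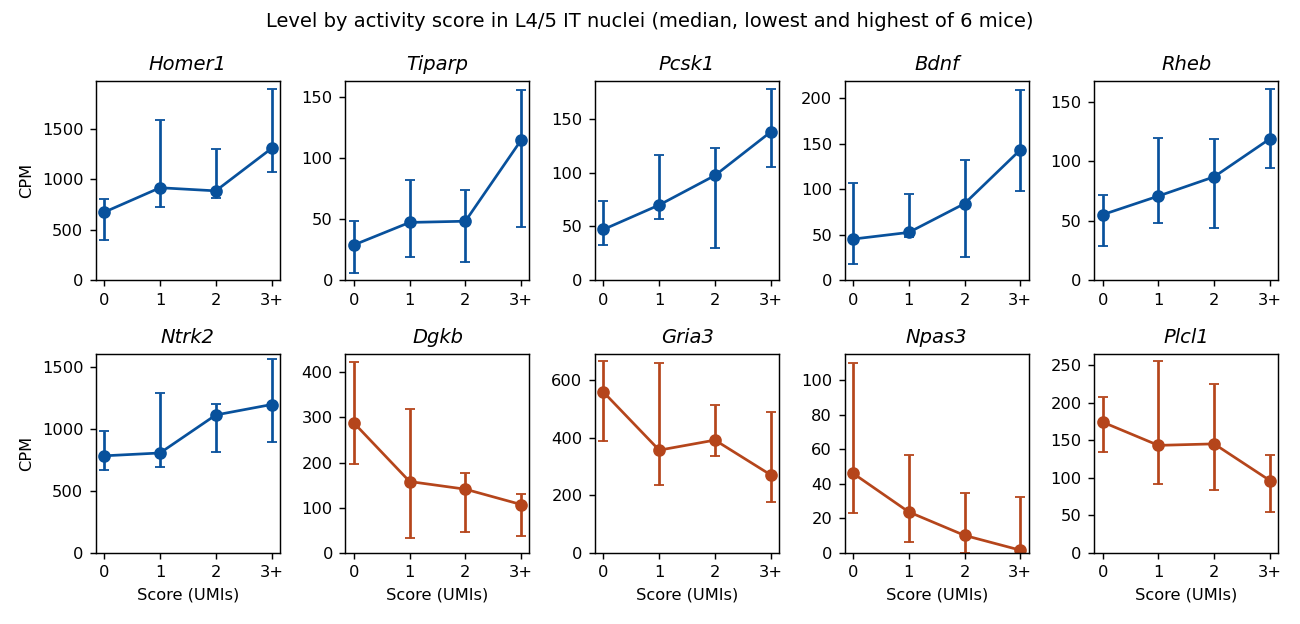
Level in CPM (y axis) of 6 higher genes (blue) and 4 lower genes (orange) in L4/5 IT nuclei with an activity score of 0, 1, 2 or at least 3 UMIs, as the median of 6 mice with the lowest and highest mouse as bars. Pcsk1, Bdnf and Rheb step up with each score and Dgkb and Npas3 step down, and Homer1 and Plcl1 are nearly level between scores 1 and 2.

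Nuclei of score 1 and 2 did not enter the contrast. The genes described here were chosen for their distance between silent and high nuclei, so that a place between these extremes is a description and supports nothing. At score 1 the median over mice lay between the silent and the high median for all 19 named higher and all 11 named lower genes. A step in the same direction at each score was seen for 11 of the 19 and 6 of the 11. Pcsk1 had medians of 47.2, 70.0, 97.5 and 138 CPM at scores 0, 1, 2 and at least 3, and Bdnf 45.1, 52.4, 84.0 and 143 CPM. Dgkb had 288, 158, 141 and 107 CPM. Tiparp, in contrast, had 47.4 and 48.4 CPM at scores 1 and 2 and 115 CPM above. Mice overlapped between neighbouring scores for each of these genes.

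Whether the difference between states depended on training was asked with a state-by-training term over the same 12 sums. It passed for 5 of 5544 genes (0.0902%), 3 with a more positive high-minus-silent difference in trained mice and 2 with a more negative one. Cntn5, a contactin cell adhesion protein, changed by -0.36, 0.15 and -0.29 from silent to high nuclei of control mice 1, 3 and 5 on the log2(CPM + 10) scale and by 1.25, 0.49 and 1.06 in trained mice 2, 4 and 6. The 2 groups did not overlap, and the fitted difference was 1.09 ± 0.18 (edgeR adjusted p = 0.00173). Zfp804b, a zinc finger protein, changed by -0.14, -0.22 and -0.10 in controls and by 2.70, 1.55 and 1.48 in trained mice (fitted difference 2.55 ± 0.46, edgeR adjusted p = 0.00387). Ptprm, a receptor tyrosine phosphatase, differed by 1.77 ± 0.36 (edgeR adjusted p = 0.022).

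Dab1, the intracellular adaptor of the reelin pathway, changed by -0.18, -0.32 and 0.05 in controls and by -1.01, -1.49 and -1.02 in trained mice, a fitted difference of -1.09 ± 0.23 (edgeR adjusted p = 0.0265). Rgs6, a regulator of G-protein signalling, gave -1.17 ± 0.25 (edgeR adjusted p = 0.0317). None of these 5 genes passed with a second random draw for thinning, where Cntn5 gave 0.29 and Zfp804b 0.96, and DESeq2 called 1 gene. At an unadjusted p under 0.05 there were 319. Without trained mouse 2, 3 genes passed. None of the named activity genes passed this test: Homer1 differed by 0.05 ± 0.19, Bdnf by 0.24 ± 0.45 and Tiparp by -1.20 ± 0.49, with edgeR adjusted p-values of 0.991, 0.984 and 0.783. On simulated data the term found 0% of 1.5-fold and 26.2% of 2-fold changes, so a missing call does not show equal change.

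Within a state, training gave no call. In high nuclei 0 of 4188 genes (0.0%) and in silent nuclei 0 of 4810 (0.0%) passed by edgeR between trained and control mice, with 184 and 246 genes at an unadjusted p under 0.05. DESeq2 called 0 and 1. Both counts rest on 3 mice a group.

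**Figure D5:**
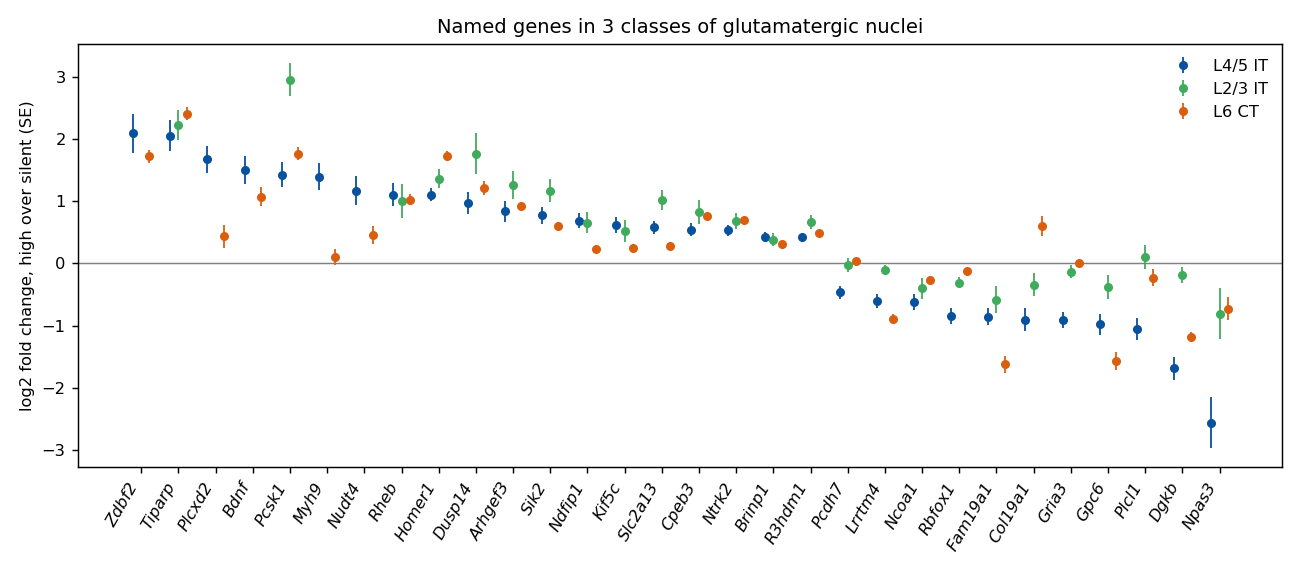
Log2 fold change of high over silent nuclei with its standard error (y axis) for the 30 named genes in L4/5 IT, L2/3 IT and L6 CT nuclei, each fitted within its class; a missing point is a gene that was not tested there. Higher genes lie above 0 in all 3 classes, and the lower genes of L4/5 IT scatter on both sides of 0 in L6 CT.

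The same contrast within L2/3 IT nuclei (52 high, 283 silent) called 56 higher (1.58%) and 4 lower genes (0.113%) of 3543, and within L6 CT nuclei (801 high, 1346 silent) 1593 higher (15.1%) and 1167 lower (11.1%) of 10543. Of the 19 named higher genes, 14 were tested in L2/3 IT, all 14 were above 0 and 11 passed. In L6 CT all 19 were tested and above 0, and 17 passed. Of the 11 named lower genes, all tested in both classes, 10 were below 0 and none passed in L2/3 IT, and in L6 CT 7 passed in the same direction and 1 in the other. Over all called genes, 41 of 43 higher genes tested in L2/3 IT were above 0 and 18 passed, and 35 of 46 lower genes were below 0 and none passed. In L6 CT 58 of 64 higher genes were above 0, with 50 passing and 3 passing the other way, and 36 of 48 lower genes were below 0, with 28 passing and 5 passing the other way.

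The difference between states was then tested between classes. The change of Dgkb in L4/5 IT (-1.68 ± 0.19) differed from that in L2/3 IT (-0.19 ± 0.13) by -1.48 ± 0.25 (edgeR adjusted p = 0.00492), and 2 of 5402 genes passed in all (0.037%), none without trained mouse 2 or trained mouse 4. Gria3 differed by -0.76 ± 0.17 from L2/3 IT, at an edgeR adjusted p of 0.0987. The starting levels differed between classes. In silent nuclei Dgkb had medians of 288 CPM in L4/5 IT, 1293.9 CPM in L2/3 IT and 284 CPM in L6 CT. Gria3 had 559, 1411.5 and 1333.4 CPM in the same classes. The part of nuclei of other classes within the gate in these differences was not tested. Pcsk1 changed by 2.95 ± 0.26 in L2/3 IT, a difference of -1.50 ± 0.34 that did not pass (edgeR adjusted p = 0.101).

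Against L6 CT, 183 of 8103 genes differed (2.26%), and 113 without trained mouse 4. Gria3 changed by 0.01 ± 0.04 in L6 CT and differed by -0.88 ± 0.13 (edgeR adjusted p = 2.1e-05). Myh9 and Plcxd2 changed more in L4/5 IT, by 1.32 ± 0.25 (edgeR adjusted p = 0.0009) and 1.29 ± 0.30 (0.00921), while Homer1 changed less, by -0.59 ± 0.14 (0.0121). Col19a1 fell in L4/5 IT and rose by 0.60 ± 0.16 in L6 CT, a difference of -1.47 ± 0.26 (edgeR adjusted p = 0.00031). The genes of smallest p whose log2 change in L4/5 IT lay above that in L6 CT were Prr16, Hs6st3, Unc5c, Lingo2 and Cacna2d3, with differences of 1.62, 1.66, 1.39, 1.31 and 1.44. None of these 5 was called within L4/5 IT, where Prr16 changed by -0.05 ± 0.11. How alike the nuclei within each gate were was not tested.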

How the data were processed

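Single nuclei of 6 mice were measured by droplet-based 3′ RNA sequencing, and the authors deposited 1 matrix of UMI counts per gene and nucleus, joined over runs and mice. The submitters' processing notes name Cell Ranger 4.0.0 and mm10, and the treatment of introns and the barcode filter is not stated there. Barcode suffixes gave the mouse, per the series' design text.

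Nuclei were gated and thinned to 2000 UMIs with a fixed seed. Full counts were summed per mouse and state and tested with edgeR 4.0.16 in R 4.3.3 (TMM, filterByExpr, quasi-likelihood, mouse as a block, Benjamini-Hochberg over all genes tested, threshold 0.05). For edgeR the 13 genes of the score were taken out of the result before adjustment. Standard errors were derived from the fold change and its F statistic. DESeq2 1.42.0 was the other tool. Its own adjusted p-values were used, computed with the 13 genes still in, and these genes were dropped afterwards. Doublets came from Scrublet in scanpy 1.11.5 with an expected share of 6%. Single values were tested by exact permutation over mice. Remaining steps used Python 3.11.15. Gene positions came from GENCODE M21 on mm10. The edgeR steps were tested on simulated data with 1.5-fold, 2-fold and 3-fold changes. The test between states recovered 47%, 83.3% and 100% of the tested changed genes, with 7 false among 146 calls. The state-by-training term recovered 0%, 26.2% and 41.9%, with 2 false among 44 calls. Simulated counts were drawn with edgeR's own fitted dispersions, without differences between mice and without the random thinning that sorts nuclei into states. The false calls there therefore do not measure those in the real contrasts.

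The members, lists and tests were chosen with earlier results of these data known. Genes named were the 20 higher and 12 lower of smallest p with the same sign in 6 of 6 mice, without predicted genes, called members of the fixed lists, for each interaction the 5 genes of least p in either direction, and the genes of the score. Of these, 1 higher and 1 lower gene are not reported here, which leaves 19 and 11. Other genes, such as list members that did not pass and promoter examples, were named after their values were seen. Predicted genes overlap several named genes on the same strand, Homer1, Dgkb, Rbfox1, Plcl1, Lrrtm4 and Pcdh7 among them. On the opposite strand a predicted gene overlaps Bdnf, Ppp2r1b overlaps Sik2, and Fars2 and a predicted gene overlap Nrn1. How such reads were assigned is not given in the sources used here. Alternatives covered the thinning draw, score threshold, gates, doublets, scaling, filter, tool, mouse block and each mouse left out.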

Additional observations from a re-analysis of the deposited data

Results flagged for a closer look

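In 1 of the 30 named genes 1 of the 6 mice stood apart in its difference between states on the log2(CPM + 10) scale, by Dixon's criterion at the 95% level, which chance meets in about 1 of 20 groups. Pcdh7 changed by -1.16 in trained mouse 6 (929 to 411 CPM), the mouse with the fewest high nuclei, 8. Without this mouse the gene kept its direction and passed.

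The difference between states itself differed between trained and control mice for 5 genes by edgeR's interaction term. The fitted differences were 1.09 for Cntn5, 2.55 for Zfp804b and 1.77 for Ptprm, and -1.09 for Dab1 and -1.17 for Rgs6.

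Between classes, Dgkb differed by -1.48 from L2/3 IT. Against L6 CT the genes of smallest p whose log2 change in L4/5 IT lay above that in L6 CT were Prr16 (1.62), Hs6st3 (1.66), Unc5c (1.39), Lingo2 (1.31) and Cacna2d3 (1.44). Those whose change lay below it were Sox8 (-4.84), Gria3 (-0.88), Pitpnc1 (-1.19), Cdh18 (-1.10) and Nefm (-1.73). Sox8 rested on low levels, with a median of 11.7 CPM in silent L4/5 IT nuclei and 0 in high ones.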

How the results depend on the processing

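The counts of genes higher and lower in high nuclei, 64 and 48, became 23 and 12 with DESeq2, 31 and 16 with no mouse block, 6 and 7 on sums of thinned counts, 5 and 1 with a class gate of 5 UMIs and 2 and 1 without nuclei above 10000 UMIs. They were 19 and 4 with Rorb of 5 UMIs and 31 and 12 without NP and oligodendrocyte markers, both chosen after seeing the data. High from 4 UMIs gave 42 higher genes. Lower genes numbered 89 with no filter on low counts and 29 with a second thinning draw. Leaving out each mouse gave 23 to 56 higher and 18 to 52 lower genes.

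The 5 training-by-state genes became 1 with DESeq2, 11 with no filter, 1 with a second draw (none of the 5), 0 with high from 2 UMIs, 3 with high from 4, 0 on thinned sums, 3 without doublets, 1 with the gate of 5, 2 with a score without Nr4a1 and Nr4a3 and 0 without nuclei above 10000 UMIs. They were 3 with Rorb of 5 UMIs, 8 without NP and oligodendrocyte markers and 9 with depth as a covariate, all added later, and 3 to 7 with each mouse left out. The 2 genes against L2/3 IT became 1 (DESeq2), 5 (no filter), 4 (second draw), 6 (high from 2) and 0 to 5 with each mouse left out. The 183 against L6 CT became 115 with a second draw and 113 to 236 with each mouse left out. Training within high nuclei gave 0 to 1 and within silent nuclei 0 to 3 genes with each mouse left out, and DESeq2 gave 1 in silent nuclei. The difference in share of high nuclei, -4.06 percentage points, was -17.3 with the gate of 5 and -10.3 to 0.702 with each mouse left out. The gate of 5 left 4 of 13 selection genes higher in every mouse.

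Signs turned without nuclei above 10000 UMIs for Gria3 (0.209), Fam19a1 (0.043) and Grid1 (0.097), and with the gate of 5 for Lrrtm4 (0.113), Lrrtm3 (0.016), Grm8 (0.249) and Rgs6 in the training-by-state test (0.046). These settings left 200 and 117 of 552 nuclei. The cause of the other changes was not tested.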
